A study of Rattus norvegicus with 12 samples.

Results

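Kidneys of obese Zucker rats that had eaten rosiglitazone were compared with kidneys of lean Zucker rats that had not, which asks how far the kidney of a treated obese animal lay from that of an untreated lean one. The study held 12 male Zucker rats, lean or obese, and measured total RNA of each rat's kidney tissue on an array of its own (Affymetrix Rat Genome 230 2.0). The 6 arrays compared here are the 3 titled obese rosiglitazone and the 3 titled lean control. The lean control rats ate ground chow. The obese rosiglitazone rats received the drug in that chow, at 3 mg per kg of body weight, and both diets ran for 12 weeks. The labels call the animals a model for diabetes and give no age, no allele and no line beyond lean or obese Zucker. All 31042 probe sets other than the 57 Affymetrix controls were tested, of 31099 on the array. A probe set is the group of short probes that together report 1 transcript, and 20826 of those tested carried exactly 1 gene symbol, for 14217 genes. Because body type and drug differ together between the groups, their effects cannot be told apart in this comparison. For that reason the mean of the 3 obese control arrays (obese rats on plain chow) or of the 3 lean rosiglitazone arrays is given beside some genes, as a level only.

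Rosiglitazone is a thiazolidinedione that binds and activates PPARgamma, the nuclear receptor that drives fat cell formation and raises genes of lipid uptake and storage. In the kidney PPARgamma is known mainly from the collecting duct, the vessels and the glomerulus, and thiazolidinediones are known to cause fluid retention. The obese Zucker rat carries a defective leptin receptor, eats in excess and becomes insulin resistant, and its kidneys are used as a model of obesity-related damage. The proximal tubule, which makes up most of the kidney cortex, takes back glucose, phosphate, amino acids and filtered protein and secretes organic anions. The distal tubule and collecting duct set the final sodium and water content of urine under aldosterone and vasopressin.

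Values are array signals (MAS5 scale), and differences are log2(signal + 16) of obese rosiglitazone minus lean control with the standard error (SE). The adjusted p is limma's after Benjamini-Hochberg adjustment over all 31042 probe sets, and a probe set is said to be higher or lower, to have risen or fallen, or to be called where it is under 0.05. The median signal of the 6 arrays lay between 208.0 and 230.8, and the Gapdh 3' to 5' ratio, a measure of RNA integrity, between 1.07 and 1.32. The same ratio for beta-actin was 1.83 to 2.24 in lean control and 1.57 to 2.4 in obese rosiglitazone, highest on obese rosiglitazone 1. Bacterial control probe sets with no target in rat RNA reached 108.0, so a group mean under that level is called background and only a lower bound of the fold is given. A hybridisation control spiked into every sample (cre) split the arrays. Lean control 1 and 2 read 21951 and 19916, while lean control 3 read 15069 and the obese rosiglitazone arrays read 14809 to 16658. This split moved with the groups, and its part in the results was not tested. A comparison of the 3 treated obese arrays with lean control 3 alone, which keeps to the lower level, is therefore given as the within-level value.

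Adjusted over all probe sets, 656 differed between treated obese and untreated lean kidneys, which is 2.11% of those tested. Of these, 282 (0.908%) were higher and 374 (1.2%) were lower in the treated obese kidneys. The changes were mostly moderate: 443 of the 656 differed at least 1.5-fold, 169 at least 2-fold and 34 at least 4-fold, the last split into 17 higher and 17 lower. These counts take the log2 difference as measured. The lower group was at background in 49 of the 656 and both groups were in 14, so their folds are uncertain. The probe set that fell most carried several gene symbols and is not named. Its mean was 3768 in lean control and 64.6, at background, in treated obese kidneys, at least 33.7-fold lower. In 655 of the 656, no array of one group fell inside the range of the other, beside 6029 probe sets (19.4%) with such a separation among all tested. The root mean square log2 difference between an array of one group and an array of the other was 0.541 to 0.61 over 9 pairs. It was 0.553 to 0.584 among the lean control arrays and 0.484 to 0.493 among the treated obese arrays. The 22396 brighter probe sets had a mean of at least 100 in the higher of the 2 groups, a choice that can favour a difference between groups. Over them the root mean square difference was 0.467 to 0.539 between the groups (median 0.51). It was 0.452 to 0.487 among lean control and 0.387 to 0.409 among treated obese arrays. The ranges between groups and among lean control arrays overlapped in both sets. Over all probe sets the median between groups, 0.582, lay inside the lean control range. Among the brighter probe sets the median between groups lay above every pair within a group. In the same fit, obese control against lean control gave 693 calls (2.23%), obese rosiglitazone against obese control 7 (0.0226%) and lean rosiglitazone against lean control 1 (0.00322%). These comparisons share arrays with the one described here.

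The count changed with single arrays. Leaving out obese rosiglitazone 1, 2 or 3 gave 383, 276 or 292 calls, and leaving out lean control 1, 2 or 3 gave 282, 391 or 698. The probe sets called in the full comparison and in each of these 6 numbered 187, 63 of them higher and 124 lower. Against lean control 3 alone there were 72 calls, 44 higher and 28 lower, of which 47 were among the 656, and this comparison has 1 lean array in place of 3 as well as a single hybridisation level. All 656 had the same sign there. For 655 of them that sign was fixed in advance, because the same arrays had not overlapped in the full comparison. The shared sign is therefore no separate support.

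**Figure D1:**
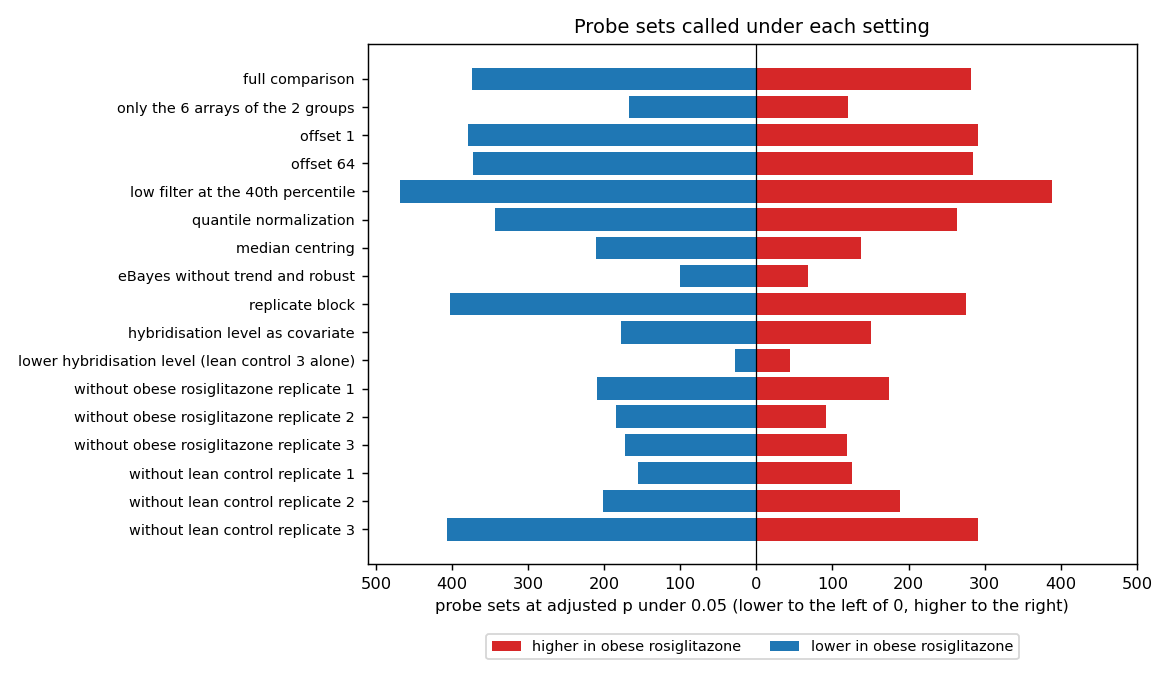
Number of probe sets called lower (to the left) and higher (to the right) in treated obese kidneys than in untreated lean kidneys, on the horizontal axis, under each setting of the analysis on the vertical axis. The full comparison gives 374 lower and 282 higher, and the comparison with lean control 3 alone gives 28 lower and 44 higher.

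Among the genes higher in treated obese kidneys, those named with the smallest adjusted p were Wtap and Inmt. Inmt encodes the methyltransferase that methylates indoles such as tryptamine. Its signal was 1936, 2389 and 1747 in the lean control kidneys and 6747, 7573 and 7049 in the treated obese kidneys. All treated obese arrays read far above all lean control arrays, 3.52-fold in means (log2 difference 1.82, SE 0.11, adjusted p = 1.45e-06 by limma). The untreated obese mean was 5996 and the treated lean mean 5300.5. Wtap, a subunit of the RNA methyltransferase complex that places N6-methyladenosine, read 562, 566 and 516 in lean control and 3524, 3749.9 and 3603 in treated obese kidneys. The arrays of each group lay close together and the groups lay 6.62-fold apart (log2 difference 2.69, SE 0.11, adjusted p = 4.57e-08 by limma). The other Wtap probe set differed by only 0.34 (adjusted p = 0.268), so the gene's probe sets disagreed. The untreated obese mean of the first probe set was 3598, and the treated lean mean was 549.

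Matn1, which encodes the cartilage matrix protein matrilin 1, read 569.8, 763 and 605 in lean control kidneys and 2917, 2574 and 2524 in treated obese kidneys. Each treated obese array was above every lean array, by 2.03 (SE 0.21, adjusted p = 0.000175 by limma), and the untreated obese mean of 1548 lay between the means of these groups. Adh1c, an alcohol dehydrogenase that also oxidises retinol, read 719, 387 and 616 in lean control and 2642, 2319 and 1957 in treated obese kidneys. It was 4.02-fold higher with no overlap (log2 difference 2.01, SE 0.19, adjusted p = 0.000111 by limma). Nt5dc1, named for its 5'-nucleotidase domain, was 4.87-fold higher (log2 difference 2.14), while its other probe set differed by 0.57 (adjusted p = 0.0686). Fubp3, a single-stranded DNA and RNA binding protein, was 5.13-fold higher in 1 probe set (log2 difference 2.31, adjusted p = 0.000377) and 0.36 lower, without a call, in the other (adjusted p = 0.0776). Inmt, Wtap, Matn1, Adh1c, Nt5dc1 and Fubp3 kept their calls under every alternative run, including the comparison with lean control 3 alone.

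Igfbp5, a secreted binding protein of insulin-like growth factors, was higher in 3 of its 5 probe sets, by 1.21 (SE 0.19, adjusted p = 0.00434) at a lean mean of 796 in the one named by rule. Its brightest probe set, with means of 8083 and 9341, differed by 0.21 and was not called (adjusted p = 0.213). Mtmr1, a phosphoinositide phosphatase, rose by 1.08 (adjusted p = 0.00854) with 2 of 4 probe sets called. Hipk3, a nuclear protein kinase, was at background in lean kidneys and at least 1.31-fold higher in treated obese kidneys (adjusted p = 0.00482), while its other probe sets, at means between 28.0 and 123, differed by 0.07 and -0.13. Against lean control 3 alone Igfbp5, Mtmr1 and Hipk3 differed by 0.96, 1.17 and 2.49, and their calls did not hold there. Gas7, Klk1c4, Tfap2a and Sspn completed the 15 largest increases chosen by rule, and each lost its call in fits that left out 1 array. Their differences in those fits were 1.73 to 2.15, 1.5 to 2.09, 1.58 to 1.93 and 1.68 to 2.0. In the full comparison they were 2.16, 1.88, 1.84 and 1.84 in the same order. Gas7, a growth arrest gene first known from brain, was at least 2.41-fold higher (adjusted p = 0.0193) and lost its call without obese rosiglitazone 1 or 2 or lean control 1 (0.071 to 0.0816). Klk1c4, of the tissue kallikrein family of near-identical serine proteases, read 524, 129.6 and 175 in lean control and 665, 848 and 1265 in treated obese kidneys (adjusted p = 0.0364). It lost its call without any array but lean control 1 (0.0586 to 0.147). The transcription factor gene Tfap2a was at least 3.27-fold higher (adjusted p = 0.0309) and lost its call without any array but lean control 3 (0.0834 to 0.135). Sspn, the sarcospan of the dystrophin complex, was at least 1.05-fold higher (adjusted p = 0.0418), lost its call without any of the 6 arrays (0.0761 to 0.157), and its other 4 probe sets were not called.

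**Figure D2:**
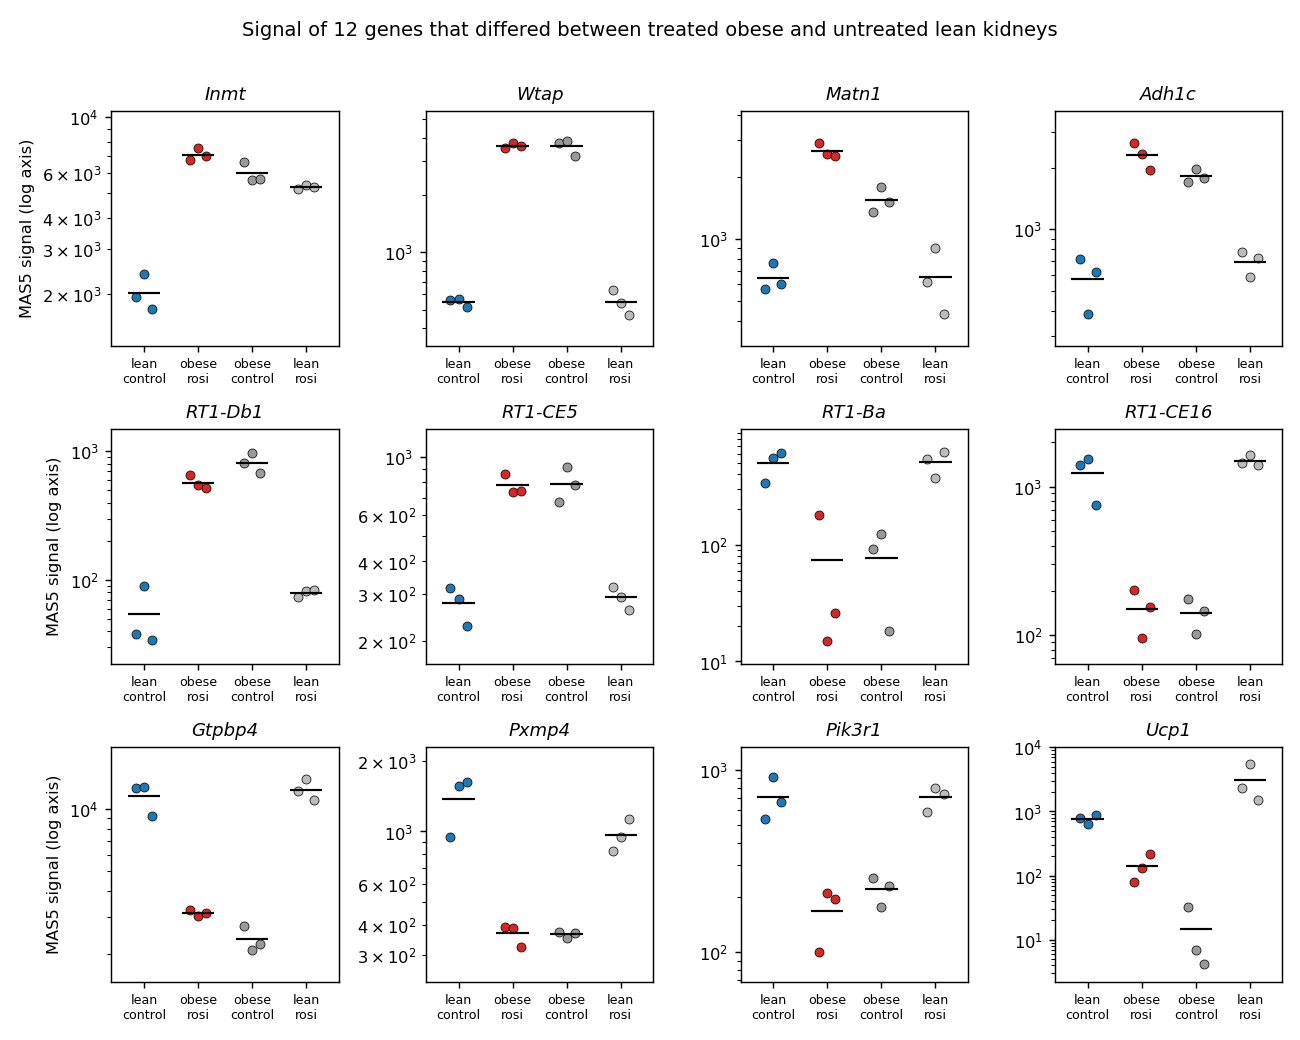
Array signal on a log axis for 12 genes with called differences, with the 4 groups side by side, 1 point per rat and a bar at the group mean. In Inmt the treated obese arrays (6747 to 7573) stand above the lean control arrays (1747 to 2389), and in Gtpbp4 they (3022 to 3232) stand below them (9202 to 12759).

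Genes of the RT1 complex, the rat major histocompatibility complex (MHC), held the largest difference in each direction among the genes named by rule. Class I molecules (RT1-CE genes) show peptides from inside the cell to CD8 T cells, and class II molecules (an alpha and a beta chain, as in RT1-Ba with RT1-Bb) show peptides taken up from outside to CD4 T cells. RT1 genes are near-identical copies that vary in sequence between rats, so which copy a probe set reports is uncertain. The promoters of the genes described next are shown because class II genes share a control element upstream of their start. They come from RefSeq on the GRCr8 assembly and run from 130 bases before to 20 after the annotated start, 5' to 3' on the gene's strand. Capitals mark the Y box CTGATTGG or its reverse complement CCAATCAG, the letters by which NF-Y is known to bind MHC promoters. RT1-Db1 lies at chr20:4560143-4560292 (minus strand), RT1-Bb at chr20:4604099-4604248 (minus) and RT1-Ba at chr20:4576927-4577076 (plus), and the class I genes RT1-CE5 at chr20:3484071-3484220 (minus) and RT1-CE16 at chr20:3265424-3265573 (minus).
RT1-Db1: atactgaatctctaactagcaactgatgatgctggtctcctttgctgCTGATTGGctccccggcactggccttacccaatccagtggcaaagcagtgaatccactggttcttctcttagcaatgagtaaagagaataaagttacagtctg
RT1-Bb: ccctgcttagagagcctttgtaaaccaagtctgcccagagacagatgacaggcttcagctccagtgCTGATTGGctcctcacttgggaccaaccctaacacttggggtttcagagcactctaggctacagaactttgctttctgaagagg
RT1-Ba: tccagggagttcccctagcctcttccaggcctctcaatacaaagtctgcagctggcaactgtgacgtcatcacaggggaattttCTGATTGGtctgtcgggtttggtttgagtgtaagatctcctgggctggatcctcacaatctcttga
RT1-CE5: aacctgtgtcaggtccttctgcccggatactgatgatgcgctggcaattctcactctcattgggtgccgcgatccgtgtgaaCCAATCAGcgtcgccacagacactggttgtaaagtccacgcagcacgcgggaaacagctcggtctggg
RT1-CE16: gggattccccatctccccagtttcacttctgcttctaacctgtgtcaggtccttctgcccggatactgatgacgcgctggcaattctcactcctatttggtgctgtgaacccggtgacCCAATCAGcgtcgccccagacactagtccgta
The letters CTGATTGG on either strand occur in 3.5% of the 33469 promoters of the table, counted over 250 bases before to 50 after the start, and in 19 of 42 RT1 promoters (45.2%). The motif was chosen after the values and sequences were seen, the alleles of these Zucker rats were not read, and a match is a description only. Genes that rose (RT1-Db1, RT1-Bb, RT1-CE5) and genes that fell (RT1-Ba, RT1-CE16) both carried it in the reference.

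RT1-Db1, a class II beta chain, read 38.4, 90.3 and 34.4 in lean control kidneys and 649, 546 and 519.5 in treated obese kidneys. The lean arrays were all at background, and the treated obese level was at least 5.27-fold higher (log2 difference 3.14, SE 0.25, adjusted p = 2.43e-05 by limma). A second, brighter RT1-Db1 probe set differed by 0.43 (adjusted p = 0.493). RT1-CE5 read 316, 289 and 228 in lean control and 859, 736 and 740.3 in treated obese kidneys, with no overlap (log2 difference 1.44, SE 0.15, adjusted p = 0.000264). Of its 4 other probe sets, 2 were also called higher (2.21 and 2.38). Both genes kept their calls under every alternative run. RT1-Bb read 466, 577 and 117 in lean control and 1539, 1454 and 1333 in treated obese kidneys (log2 difference 2.11, SE 0.41, adjusted p = 0.0169). It lost its call without any 1 of the treated obese arrays (0.0534 to 0.0622), and its other probe set differed by -1.14 (adjusted p = 0.721).

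RT1-CE16 read 1394, 1541 and 753 in lean control kidneys and 201, 96.7 and 155 in treated obese kidneys. Every treated obese array was below every lean array, 8.14-fold in means (log2 difference -2.89, SE 0.28, adjusted p = 0.000112 by limma), although the adjusted p was 0.0845 against lean control 3 alone. One RT1-Ba probe set read 339, 554 and 607 in lean control and 179, 15 and 26.1 in treated obese kidneys, at least 4.49-fold lower (adjusted p = 0.0211). Its call was lost without obese rosiglitazone 2 or 3 or lean control 2 or 3 (0.0561 to 0.0941), and the gene's 3 other probe sets differed by 0.5, 0.38 and -0.13, none called. In these probe sets the untreated obese means (818 for RT1-Db1, 789 for RT1-CE5, 2459 for RT1-Bb, 141 for RT1-CE16, 77.4 for RT1-Ba) lay on the side of the treated obese kidneys. The treated lean means (79.8, 292, 409, 1494 and 510.2) lay on the side of the lean control kidneys. Over the list of 24 measured MHC and antigen presentation genes, each by its brightest probe set, 3 rose (RT1-CE5, RT1-CE10 and RT1-Bb) and 2 fell (RT1-CE16 and Cd74), beside 2.95% called among all 14217 genes (1.15% higher, 1.79% lower). The median was -0.01, and 1 rose and 1 fell without obese rosiglitazone 2 or 3. Cd74, the invariant chain that escorts class II molecules, fell by 0.51 on the log2 scale (adjusted p = 0.0181), a call lost without lean control 2 or obese rosiglitazone 2 or 3 (0.0638 to 0.0758). The master activators Ciita and Nlrc5 differed by -0.16 and 0.11, and the class I partner B2m by -0.06 (adjusted p = 0.824, 0.919 and 0.856). None of 47 leukocyte and inflammation genes was called, and their summed signal was 21686 to 25133 in lean control and 25251 to 26715 in treated obese kidneys. Their median difference was -0.01, with 23 members above 0 and 24 below. It was -0.28 against lean control 3 alone and -0.23 with the hybridisation level as a covariate. The part of leukocytes in the MHC values was not tested.

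Among the genes lower in treated obese kidneys, Gtpbp4, a GTPase needed for making the large ribosomal subunit, read 12502, 12759 and 9202 in lean control and 3232, 3022 and 3155 in treated obese kidneys. The treated obese arrays lay together, well below the lean ones (log2 difference -1.85, SE 0.13, adjusted p = 9.67e-06 by limma), and its other probe set fell by 2.72 on the log2 scale. The untreated obese mean was 2350.4. Pxmp4, a peroxisomal membrane protein, read 945, 1568 and 1621 in lean control and 394, 388 and 324 in treated obese kidneys. It was lower in both of its probe sets (-1.82, SE 0.18, adjusted p = 0.000175, and -2.44). AKR1C3l1, of the aldo-keto reductase family that reduces steroids and prostaglandins, read 16604, 9929.5 and 12464 in lean control and 2687, 3080.4 and 3362 in treated obese kidneys, a 4.27-fold difference (-2.06, SE 0.21, adjusted p = 0.000192). These 3 genes kept their calls under every alternative run. Members of the Akr1c family are near-identical, so signal given to 1 copy could come from another.

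Pik3r1, the regulatory subunit of the phosphoinositide 3-kinase that carries the insulin signal, read 537, 921 and 667 in lean control and 100, 212 and 195 in treated obese kidneys. No treated obese array reached the lean range (-1.99, SE 0.26, adjusted p = 0.00117 by limma), though the adjusted p was 0.122 against lean control 3 alone. Prlr, the prolactin receptor, fell in all 3 of its probe sets (-0.9, -1.7 and -1.32). F2, the clotting factor prothrombin, was 3.52-fold lower (adjusted p = 0.000456). Poteml2, a POTE ankyrin family gene, was 6.71-fold lower (adjusted p = 0.00124), with a wide spread in lean kidneys (1924, 5679 and 2999). Crocc, a component of the ciliary rootlet, was at background in treated obese kidneys and at least 2.24-fold lower (adjusted p = 0.00631). Gcgr, the glucagon receptor, was at least 1.68-fold lower by the same reckoning (adjusted p = 0.00723). None of Pik3r1, Prlr, F2, Poteml2, Crocc and Gcgr lost its call when any 1 array was left out. Their calls did not hold against lean control 3 alone, a comparison with 1 lean array. There the differences were -1.94, -0.77, -1.63, -2.54, -2.17 and -1.75 in the same order. Elac1, a tRNA 3' processing enzyme, and Slc13a4, a sulfate transporter, were at least 2.09-fold and 1.3-fold lower (adjusted p = 0.0465 and 0.0221). Elac1 lost its call without any array but obese rosiglitazone 2 (0.0533 to 0.169), and Slc13a4 without any of the 6 (0.0507 to 0.0891).

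Ucp1 and Cox8b, known from brown fat, were among the largest decreases. Ucp1, the uncoupling protein that turns the mitochondrial proton gradient into heat, read 803, 632 and 894 in lean control kidneys and 79.1, 132 and 219.8 in treated obese kidneys. The groups did not overlap (log2 difference -2.39, SE 0.44, adjusted p = 0.0126 by limma), and the call was lost without obese rosiglitazone 1 or lean control 1 (0.0533 and 0.0541). Nor did the call hold against lean control 3 alone, where the difference was -2.61. Cox8b, a subunit of cytochrome c oxidase in muscle and brown fat, read 387, 169 and 593 in lean control and 31.6, 49.3 and 90.8 in treated obese kidneys. It was at least 3.15-fold lower (adjusted p = 0.00921) and was not called against lean control 3 alone (0.0636). The untreated obese means of Ucp1 and Cox8b were 14.6 and 29.3, and the treated lean means 3109 and 1429. Of 14 measured brown fat markers these were the 2 called, both lower, beside the 2.95% of all genes. The median of the list was -0.04, beside 0.0 over all genes. Cidea, another defining marker, differed by -0.55 (adjusted p = 0.422). The summed signal of the brown fat list was 11591 to 12582 in lean control and 11482 to 11962 in treated obese kidneys, no member was under 1 on all 6 arrays, and the part of fat attached to the kidney was not tested. In whole tissue, fewer cells of a type and less RNA per cell cannot be told apart.

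Of 19 measured white fat markers, 2 were lower and none higher (10.53% called, beside 2.95% of all genes), with a median of -0.05. Cfd, the adipsin secreted by fat cells, read 295, 176 and 499.9 in lean control and 93.4, 85.6 and 128 in treated obese kidneys, at least 2.76-fold lower (adjusted p = 0.0372). That call was lost without any array but lean control 2 (0.0657 to 0.139). Aqp7, a glycerol channel of fat cells that is also present in the proximal tubule, fell from a mean of 4171 to 2705 (-0.63, SE 0.11, adjusted p = 0.0112), and its adjusted p was 0.0518 without lean control 1. Adipoq, which encodes the fat cell hormone adiponectin, read 645, 589 and 670.2 in lean control and 583, 536 and 639.5 in treated obese kidneys. These overlapped, with a log2 difference of -0.11 and a 95% interval of -0.5 to 0.28 (adjusted p = 0.859). The summed signal of the list was 27202 to 30099 in lean control and 25247 to 28365 in treated obese kidneys.

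Of 26 measured PPARgamma and drug target genes, 4 were higher and 1 lower (19.23% called, beside 2.95% of all genes), with a median of 0.05. Those higher were Lpl, Cd36, Angptl4 and Ces1d. Lpl, the lipase that frees fatty acids from circulating triglyceride, read 1689.7, 1980 and 2345 in lean control and 4316, 4671 and 3887 in treated obese kidneys. The groups were well separated (1.1, SE 0.18, adjusted p = 0.00771 by limma). Cd36, which takes fatty acids into cells, read 469, 259.6 and 372 in lean control and 746, 941 and 776 in treated obese kidneys. It was 2.24-fold higher (1.16, SE 0.21, adjusted p = 0.012), with an adjusted p of 0.0611 without obese rosiglitazone 2, and the untreated obese mean was 381. Angptl4, a secreted inhibitor of lipoprotein lipase, rose by 1.27 (SE 0.3, adjusted p = 0.0483) and lost its call without any array but obese rosiglitazone 3 (0.0539 to 0.163). Ces1d, a carboxylesterase that hydrolyses lipid esters, rose by 0.9 (adjusted p = 0.0204) and lost its call without obese rosiglitazone 2 or 3 or lean control 1 or 3 (0.0527 to 0.0952). None of these 4 was called against lean control 3 alone, where Lpl differed by 0.86 (adjusted p = 0.0621) and Cd36 by 1.1 (0.0781). The untreated obese means of Lpl, Angptl4 and Ces1d were 3391, 304 and 818. Their lean control means were 2005, 147 and 354, and their treated obese means 4291, 383 and 679.5. The member that fell was Aqp7. The receptor Pparg itself read 166, 179 and 223 in lean control and 258, 227 and 257 in treated obese kidneys (0.37, 95% interval -0.1 to 0.83, adjusted p = 0.501).

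Of 37 measured fatty acid oxidation genes and PPARalpha targets, 3 were lower and 1 higher (10.81% called, beside 2.95% of all genes). Of the list, 28 had a difference below 0 and 9 above, and the median was -0.15. The 3 lower were Pxmp4, described above, Eci2 and Slc27a2. Eci2, which shifts double bonds of unsaturated fatty acids in peroxisomes, fell by 0.51 on the log2 scale (adjusted p = 0.0347), and Slc27a2, a very long chain fatty acid transporter and ligase, fell by 0.47 on the log2 scale (adjusted p = 0.0499). Eci2 lost its call without any array but obese rosiglitazone 2 (0.0667 to 0.141), and Slc27a2 without any array but lean control 2 (0.119 to 0.158). The 1 higher was Angptl4, which blocks lipid uptake rather than burning fat. The entry enzymes Cpt1a and Cpt2 differed by -0.05 and -0.04, and Acadm, of medium chain oxidation, by -0.38 (adjusted p = 0.881, 0.959 and 0.0546). Of 21 fatty acid synthesis genes 1 was called (4.76%, beside 2.95% of all genes). This was Pnpla3, a lipid droplet protein, lower in 1 of its 3 probe sets (-0.82, adjusted p = 0.0178 by limma). It lost its call without obese rosiglitazone 2 or 3 or lean control 1 or 2 (0.0523 to 0.0727). None of 18 cholesterol genes and none of 31 glucose metabolism genes was called.

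In the same fit, 7 probe sets differed between the treated and the untreated obese kidneys, and they are given here to show where the treated obese level stood beside lean. They were chosen after their values were seen, and that comparison shares the treated obese arrays. For 3 of them the treated obese and lean control arrays overlapped or lay close. Tro, which encodes the adhesion protein trophinin, had means of 693 in lean control, 309 in untreated obese and 651 in treated obese kidneys. The difference of treated obese from lean was -0.1, with a 95% interval of -0.42 to 0.22. Fabp5, a fatty acid binding protein, read 4208, 4207 and 4107 in lean control and 5104, 3864 and 4185 in treated obese kidneys, beside an untreated obese mean of 2470.1 (0.06, interval -0.18 to 0.3). Spns2, the exporter of sphingosine-1-phosphate, had means of 731, 1169 and 607 in the same order (-0.26, interval -0.54 to 0.02). Their adjusted p against lean were 0.84, 0.88 and 0.412, which does not show that the levels were alike.

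Slc7a12 and Slc22a13 had treated obese means between the untreated obese and the lean means. Slc7a12, an amino acid transporter, read 8277, 7757 and 5948 in lean control and 3951, 3859.6 and 3766 in treated obese kidneys, beside an untreated obese mean of 2184. It remained 1.90-fold below lean (-0.91, SE 0.12, adjusted p = 0.00153), with an adjusted p of 0.0735 against lean control 3 alone. Slc22a13, a urate and nicotinate transporter of the tubule, had means of 728, 80.5 and 383, and was below lean on every array (-0.89, interval -1.41 to -0.38, adjusted p = 0.0766). The fat cell and endothelial lipid carriers Fabp4 and Rbp7 stood on the far side of lean. Fabp4, which shuttles fatty acids, read 1068, 1065 and 2408 in lean control and 4111, 2862 and 2776 in treated obese kidneys, beside an untreated obese mean of 403. No lean array reached the treated obese range, but lean control 3 came close, and the adjusted p was 0.112 (1.18, interval 0.43 to 1.94). Without lean control 3 the difference was 1.57 (adjusted p = 0.0274), and against lean control 3 alone it was 0.41 (0.535). Rbp7, a retinol binding protein, had means of 103, 42.8 and 252, the first 2 at background, and differed from lean by at least 2.28-fold without passing the test (adjusted p = 0.103).

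**Figure D3:**
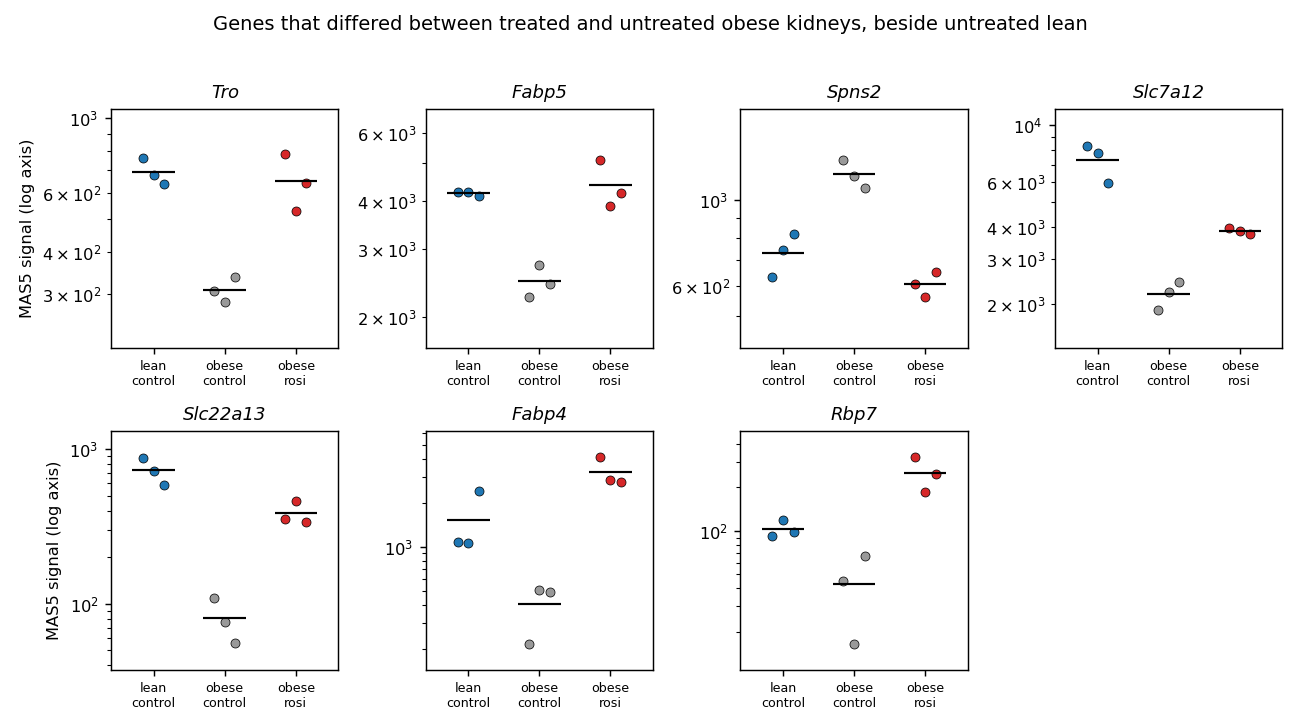
Array signal on a log axis of the 7 genes that differed between treated and untreated obese kidneys, in lean control, obese control and obese rosiglitazone kidneys, 1 point per rat with a bar at the mean. Tro and Fabp5 of treated obese kidneys stand beside lean control, Slc7a12 below it (3766 to 3951 against 5948 to 8277) and Fabp4 above it (2776 to 4111 against 1065 to 2408).

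Proximal tubule genes were the list with the most calls. Of 41 measured, 14 were lower and none higher in treated obese kidneys (34.15%, beside 2.95% of all genes). In 23 the groups did not overlap (beside 22.3% of all genes), and the median was -0.39. The shares are not at like signal, since 2647 of the 14217 genes, and none of these 41, were at background in both groups. The list was also written with earlier results of these data known. The summed signal of the list was 244750 to 297557 in lean control and 207642 to 212643 in treated obese kidneys. Among transporters of organic anions, Slc22a7 (OAT2) read 1276, 1506 and 1141 in lean control and 493, 487 and 574 in treated obese kidneys. It was the member that fell most, 2.52-fold (-1.3, SE 0.14, adjusted p = 0.000272 by limma). Slc22a6 (OAT1), which takes up drugs and uremic anions from blood, fell from 2093, 2399 and 2325 to 1172, 1613 and 1409 (-0.7, adjusted p = 0.0117). Slc17a1 and Slc17a3, phosphate carriers of the apical membrane that also export urate, fell by 0.97 and 0.73 on the log2 scale (adjusted p = 0.00138 and 0.00645). Slc13a3, which takes up dicarboxylates, fell by 0.7 on the log2 scale (adjusted p = 0.0117).

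Slc34a1, the main sodium-phosphate cotransporter of the brush border, read 15564, 13779.8 and 13884 in lean control and 8751, 9432 and 10508 in treated obese kidneys, with no overlap (-0.59, SE 0.09, adjusted p = 0.00323 by limma). Cubn and Amn, which together form the receptor cubam for filtered protein and vitamin B12, fell by 0.5 and 0.78 on the log2 scale (adjusted p = 0.012 and 0.000375). Their partner Lrp2 (megalin) differed by -0.43 without a call (adjusted p = 0.104). Anpep, the aminopeptidase N of the brush border, read 7696, 7386 and 6980.1 against 4183, 4226 and 4498 (-0.77, SE 0.09, adjusted p = 0.000405). Napsa, an aspartic protease of lysosomes, read 8111, 8191 and 8065 against 5139, 4879.8 and 4835, and its arrays of each group lay close together (-0.71, SE 0.09, adjusted p = 0.00124). Miox, which breaks down inositol, the water channel Aqp1 and the peptide transporter Slc15a2 fell by 0.52, 0.42 and 0.41 on the log2 scale. Hnf4a, a transcription factor of proximal tubule identity, fell by 0.39 on the log2 scale (adjusted p = 0.0206) at means of 10283 and 7867, and 3 of its probe sets were called lower. The glucose transporters did not pass the test: Slc5a2 (SGLT2) read 36.5, 54 and 502 in lean control and 165, 1134 and 829 in treated obese kidneys, which overlapped (2.18, interval 0.13 to 4.23, adjusted p = 0.317). Slc5a1 and Slc2a2 differed by -0.45 and 0.27 (adjusted p = 0.32 and 0.818).

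The untreated obese means were not uniform among these members. Slc22a7, Slc13a3, Aqp1, Cubn and Hnf4a had untreated obese means of 465, 3006, 11248, 3997 and 7848, close to or below their treated obese means of 518, 3904, 11541, 3892 and 7867. Slc22a6, Slc17a1 and Slc17a3 had untreated obese means of 2013, 2385 and 3157, between the treated obese (1398, 1462 and 2369) and the lean means (2273, 2873 and 3946). The number of proximal members called lower was 8, 10 or 18 when lean control 1, 2 or 3 was left out, and 13, 10 or 10 when obese rosiglitazone 1, 2 or 3 was. Against lean control 3 alone it was 1 (Napsa), with a list median of -0.22, and after quantile normalization 11 were lower and 1 higher, with a median of -0.25.

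Of 33 measured distal sodium and water transport genes, 5 were higher and none lower (15.15% called, beside 2.95% of all genes). Of the 33, 26 had a difference above 0 and 7 below, and the median was 0.32. The groups did not overlap in 14 members, beside 22.3% of all genes. Sgk1, the aldosterone-induced kinase that keeps sodium channels at the membrane, read 4584, 3305 and 3722 in lean control and 7117, 6505 and 6302 in treated obese kidneys. All treated obese arrays were higher (0.79, SE 0.14, adjusted p = 0.0111 by limma), and the call held against lean control 3 alone (0.83, adjusted p = 0.0363). Nr3c2, the mineralocorticoid receptor through which aldosterone acts, read 900.2, 866 and 917 against 1289, 1171 and 1562 (0.57, SE 0.11, adjusted p = 0.0186). Scnn1b, the beta subunit of the epithelial sodium channel, read 1637, 1043 and 1495 against 1900.1, 2133 and 2215 (0.6, SE 0.14, adjusted p = 0.0364). Its partners Scnn1a and Scnn1g differed by 0.5 and 0.2 without a call (adjusted p = 0.0653 and 0.742). Avpr2, the vasopressin receptor of the collecting duct, and Aqp3, the basolateral water channel, rose by 0.55 and 0.81 (adjusted p = 0.0178 and 0.0286). Aqp2, the apical water channel that vasopressin moves to the membrane, read 12721, 11374 and 12060.2 against 13229.8, 12201 and 11526. These overlapped, with a difference of 0.03 and a 95% interval of -0.19 to 0.25. The thiazide-sensitive cotransporter Slc12a3 read 2367, 2334 and 4156 against 3628, 4779 and 4313 (0.56, adjusted p = 0.188), was called without lean control 3 (0.84, adjusted p = 0.0154), and differed by 0.02 against lean control 3 alone (0.974).

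Of the 5 distal calls, that of Sgk1 held when any 1 array was left out and the other 4 did not. Nr3c2 lost its call without obese rosiglitazone 3 or lean control 1 or 2 (0.0626 to 0.0784), Scnn1b without lean control 2 or any 1 treated obese array (0.0572 to 0.137), Avpr2 without obese rosiglitazone 1 or 2 or lean control 1 (0.0611 to 0.0833), and Aqp3 without obese rosiglitazone 1 or 2 or lean control 1 or 3 (0.0784 to 0.123). The count of members called was 2 without obese rosiglitazone 1 or 2 or lean control 1, and 3 without lean control 2. It was 4 without obese rosiglitazone 3 and 7 without lean control 3. With the 6 arrays alone or with the hybridisation level as a covariate the count was 1 (Sgk1). With median centring it was also 1 (Nr3c2), and Sgk1 lost its call there. Without limma's trend and robust options the count was 0. Against lean control 3 alone Sgk1 was the 1 member called, and the median was 0.19. The untreated obese means of Sgk1, Nr3c2, Scnn1b, Avpr2 and Aqp3 were 5089, 1318, 2117, 1012 and 4557. Among the other nephron lists no member was called: intercalated cells (15 measured, median 0.32), thick ascending limb and medulla (18, median 0.13) and podocytes (15, median 0.4). These values changed with lean arrays. Without lean control 3 the podocyte median was 0.74, with 1 member called higher, and the thick ascending limb median was 0.0, with 3 called higher. Without lean control 2 the medians were 0.2 for podocytes and 0.16 for intercalated cells, and without lean control 1 there was 1 intercalated call. Leaving out obese rosiglitazone 1 gave the thick ascending limb 1 call and a median of 0.07. Against lean control 3 alone the podocyte median was 0.06 and the intercalated 0.18. The summed signal of the intercalated list was 28155 to 33812 in lean control and 35868 to 37755 in treated obese kidneys.

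**Figure D4:**
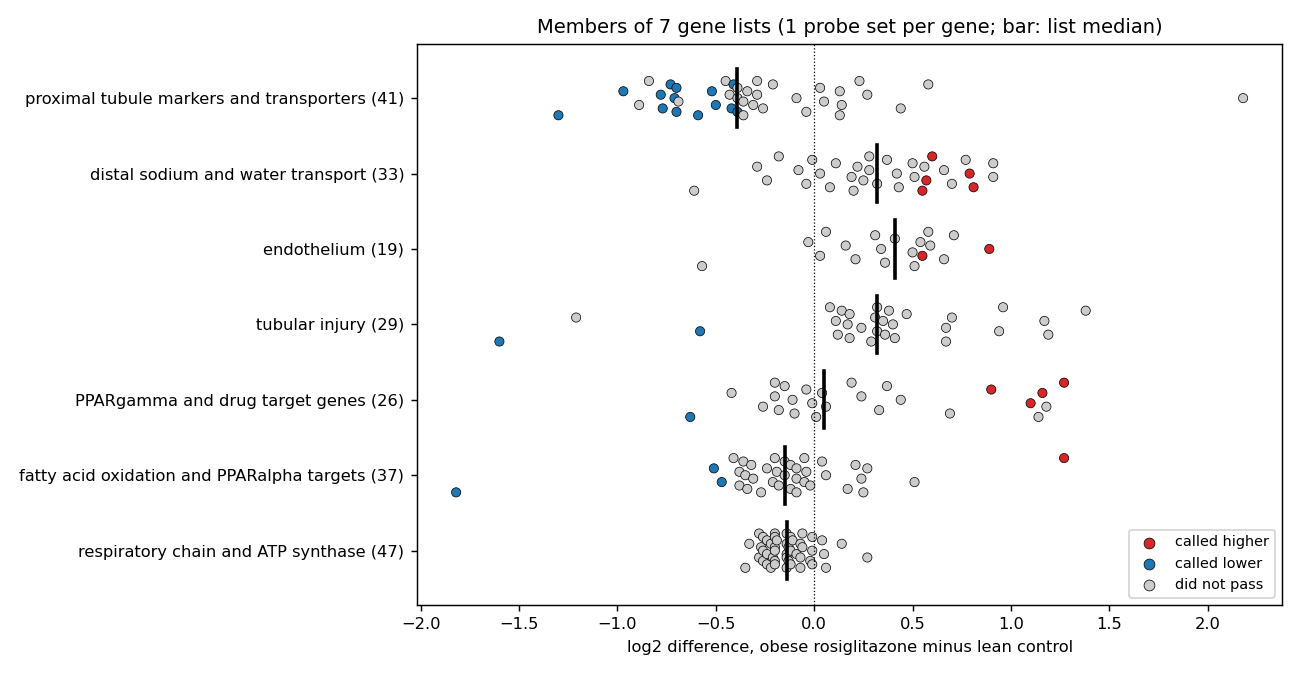
Log2 difference of treated obese minus untreated lean kidneys for every measured member of 7 gene lists, with red points for members called higher, blue for called lower, grey for those that did not pass and a black bar at the list median. The proximal tubule list has 14 blue points and a median of -0.39, and the distal sodium and water list has 5 red points and a median of 0.32.

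Of 15 measured genes of the renin angiotensin system, 3 were lower and 1 higher (26.67% called, beside 2.95% of all genes), with a median of -0.19. Agt, the precursor of angiotensin peptides, which the proximal tubule also makes, read 1359.9, 1119 and 1241 in lean control and 804, 642 and 670.2 in treated obese kidneys. It was 1.76-fold lower without overlap (-0.8, SE 0.11, adjusted p = 0.0021 by limma), beside an untreated obese mean of 1113, and its adjusted p was 0.124 against lean control 3 alone. Ace, the enzyme that makes angiotensin II, was lower in 1 of 2 probe sets (-0.56, adjusted p = 0.0373), a call lost without any of the 6 arrays (0.059 to 0.157). The other one was Anpep, which trims angiotensin III and belongs to the proximal list too. The member that rose was Ctsc, cathepsin C, a lysosomal peptidase known chiefly for activating granule proteases (0.71 and 0.94 in its probe sets, adjusted p = 0.0137 and 0.0151). The first of these lost its call without obese rosiglitazone 2 or 3 (0.0669 and 0.0596). The angiotensin receptors Agtr1a and Agtr1b differed by 0.07 and 0.14 (adjusted p = 0.963 and 0.868).

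Injury genes gave 2 calls among 29 measured, both lower (6.9%, beside 2.95% of all genes). The median was 0.32, and 26 members had a difference above 0. Without lean control 2, 2 members were higher and 2 lower, and without obese rosiglitazone 3, 1 was higher and 2 lower. Without obese rosiglitazone 2 or lean control 1, 1 was lower. With the hybridisation level as a covariate 2 were higher and 2 lower, and after quantile normalization 1 was higher and 1 lower. Krt19, a keratin of duct and injured tubule epithelium, read 1667, 1713 and 1117 in lean control and 602, 363 and 489 in treated obese kidneys, 3.09-fold lower (-1.6, SE 0.23, adjusted p = 0.00263 by limma). Its adjusted p was 0.211 against lean control 3 alone. Tff3, a trefoil peptide secreted by tubule epithelium, fell by 0.58 on the log2 scale (adjusted p = 0.0117), and lost its call without obese rosiglitazone 2 or lean control 1 (0.0584 and 0.0581). That call was also lost after quantile normalization and with median centring, and over all alternatives the difference ran from -0.65 to -0.19. Havcr1 (KIM-1), the injury marker of the proximal tubule, read 145, 214 and 96.6 in lean control and 233, 325 and 852 in treated obese kidneys. The treated obese arrays were all above the lean ones but differed widely among themselves (1.38, interval -0.06 to 2.82, adjusted p = 0.382), and the untreated obese mean was 1183. Spp1 (osteopontin) had means of 6942 and 11309.8 (0.7, adjusted p = 0.0765 by limma). It was called higher after quantile normalization and with the hybridisation level as a covariate (0.96, adjusted p = 0.0182 with the covariate). Lcn2 (NGAL) had means of 206 and 82.2, in the opposite direction, at least 1.89-fold apart (adjusted p = 0.0727).

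Of 40 fibrosis and extracellular matrix genes 1 was called (2.5%, beside 2.95% of all genes). Ccn1, a matrix-associated protein induced by stretch and growth factors, read 99.9, 123 and 90.5 in lean control and 277, 231 and 283 in treated obese kidneys, at least 2.43-fold higher (1.22, SE 0.23, adjusted p = 0.0159 by limma). It lost its call without obese rosiglitazone 1 or 3 or lean control 1 (0.059 to 0.0673), and the untreated obese mean was 491. Collagen and growth factor genes such as Col1a1, Col3a1 and Tgfb1 differed by -0.28, 0.05 and 0.15 (adjusted p = 0.657, 0.959 and 0.813). Endothelial genes had a median of 0.41 over 19 measured, with 17 above 0 and 2 called higher (10.53%, beside 2.95% of all genes). The calls were Cav1, the caveola coat protein (0.55, adjusted p = 0.0426), and Sox18, a transcription factor of vessel formation (0.89, adjusted p = 0.0429). Cav1 lost its call without any of the 6 arrays (0.0627 to 0.174) and Sox18 without any but obese rosiglitazone 1 (0.0522 to 0.168). The receptors Kdr and Flt1 differed by 0.58 and 0.66 and the junction gene Pecam1 by 0.36, none called (adjusted p = 0.188, 0.195 and 0.49). The summed signal of the endothelial list was 13294 to 14282 in lean control and 17210 to 18918 in treated obese kidneys.

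Of 56 measured genes of xenobiotic metabolism, 5 were higher and 4 lower (16.07% called, beside 2.95% of all genes), with a median of -0.09. Beside Inmt and Ces1d, the genes that rose were Sult1a1, which sulfates phenols (2.03-fold, adjusted p = 0.00936; 0.0509 without obese rosiglitazone 2), Ugt8, which makes galactosylceramide (0.78, adjusted p = 0.0307), and the carboxylesterase Ces2c (0.46, adjusted p = 0.0355). Slco1a1, an anion transporter, fell by 0.9 on the log2 scale (adjusted p = 0.0158), and lost its call without obese rosiglitazone 2 or lean control 1 or 2 (0.0543 to 0.0783). The arachidonic acid hydroxylases Cyp4f1 and Cyp4f6 fell by 0.62 and 0.49, and Akr1c1 by 1.49, on the log2 scale (adjusted p = 0.0267, 0.0355 and 0.0304). The calls of this list were 1 higher and none lower without obese rosiglitazone 2, 2 and none without lean control 1, 2 and 2 without obese rosiglitazone 3, 3 and 2 without lean control 2, 5 and 1 without obese rosiglitazone 1, and 3 and 5 without lean control 3.

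Of 44 glutathione and oxidative stress genes, 4 were lower and 1 higher (11.36% called, beside 2.95% of all genes), with a median of -0.09. Cyba (p22phox), the membrane subunit of the NADPH oxidases that make superoxide, read 1215, 1409 and 1164 in lean control and 599, 658 and 638 in treated obese kidneys. It was 2.00-fold lower in means without overlap (-0.98, SE 0.11, adjusted p = 0.000384 by limma), with an untreated obese mean of 904. Against lean control 3 alone Cyba differed by -0.87 and its call did not hold. Sod1, which removes superoxide, fell by 0.47 on the log2 scale (adjusted p = 0.0245). Mt2A, a metal-binding metallothionein, fell by 0.63 on the log2 scale (adjusted p = 0.0233), and lost its call without lean control 1 or any 1 treated obese array (0.0523 to 0.0853). Among glutathione transferases Gstt1 fell by 0.57 on the log2 scale (adjusted p = 0.00501 by limma) and Gstm2 rose by 0.86 (adjusted p = 0.00917). Neither call held against lean control 3 alone, where the differences were -0.54 and 0.71. Without lean control 1 or any 1 treated obese array 2 members were lower, 3 without lean control 2 and 5 without lean control 3. None of 47 respiratory chain and ATP synthase genes was called, with a median of -0.14 that became 0.01 after quantile normalization.

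Of 28 insulin signalling genes 2 were called, both lower (7.14%, beside 2.95% of all genes). They were Pik3r1, given above, and Igf2r, the scavenger receptor of insulin-like growth factor 2. Igf2r differed by -0.6 (adjusted p = 0.0117 by limma, and 0.0505 without obese rosiglitazone 2), and its other probe set fell by 0.68 on the log2 scale. The mitochondrial chaperones Hspd1 and Hspe1, partners in protein folding, fell by 0.43 and 0.46 on the log2 scale (adjusted p = 0.0425 and 0.0458). Each lost its call without any array but lean control 3 (0.0826 to 0.158 in both). The immediate early gene Fos read 1578, 4500.2 and 431 in lean control and 348, 197 and 201 in treated obese kidneys. It was not called (-2.53, adjusted p = 0.139). Without lean control 3 it was (-3.39, adjusted p = 0.0353), and against lean control 3 alone the difference was -0.8 (0.442). Kif11, a spindle motor, was the 1 gene called of 39 cell cycle genes (2.56%, beside 2.95% of all genes). It differed by -0.67 (adjusted p = 0.0266 by limma), and lost its call without obese rosiglitazone 1 or 2 or lean control 1 or 2 (0.0756 to 0.102). No member was called in the lists for interferon response, smooth muscle and mesangium, circadian clock, unfolded protein response, eicosanoid metabolism, Wnt inhibitors, urothelium, adrenal cortex or red blood cells. The leptin receptor Lepr, measured by 7 probe sets, was called in none (0.5 in the brightest, adjusted p = 0.425). Over all 31042 probe sets limma gave 4373 with an unadjusted p under 0.05.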

How the data were processed

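Arrays (Affymetrix Rat Genome 230 2.0) of kidney RNA from 12 rats, 3 per group, were grouped by sample title. The deposited values are linear array intensity signals, and the submitters' processing notes name MAS5. For the scaling settings, the sources used here give nothing. Probe sets were named through GEO's platform annotation: 20826 had 1 symbol, 436 several and 9780 none, and 20758 gene IDs were found in RefSeq GRCr8 with 0 symbols changed. log2(signal + 16) was fitted with limma 3.58.1 (trend and robust, R 4.3.3) as 4 group means over all 12 arrays, with 8 residual degrees of freedom, so the other 6 arrays entered only the estimate of spread. Probe sets were called at an adjusted p under 0.05 (Benjamini-Hochberg).

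Named genes were the 15 largest differences each way among called probe sets with 1 symbol, no overlap and a mean of at least 100 in the higher group, up to 4 called members of each list by smallest p, and a look-up list. Other list members and the 7 drug-changed genes were named after their values were seen. A gene was counted by its brightest probe set. Members and lists were chosen with earlier results of these data known. A fold bound at background uses 108.0 as the lower level. The labels give separate rats. The deviations of same-numbered arrays of the 2 compared groups correlated at -0.041, 0.045 and 0.042, and the numbers were not used as pairs. In both lean groups arrays 1 and 2 had the higher and array 3 the lower cre level. Whether arrays of the same number were handled together is not labelled and was not tested. The number of arrays limits precision. The fit was tested on simulated data.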

Additional observations from a re-analysis of the deposited data

How the results depend on the processing

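The 656 calls became 288 with the 6 arrays alone, 348 with median centring, 168 without trend and robust estimation, 328 with the hybridisation level as a covariate and 72 within its lower level, where lean control is 1 array assumed to vary like the other groups. Leaving out 1 array gave 276 to 698. Offsets of 1 and 64 gave 670 and 658, quantile normalization 606, and dropping the dimmest 40% of probe sets 856. With the replicate number as a block there were 679 calls, 579 of them among the 656. Fos and Slc22a13, not called as reported, were called with that block (adjusted p = 0.04 and 0.0272). The share of probe sets called higher, 43.0%, became 61.1% within the lower hybridisation level. Scaling moved the median of all probe sets little (0.003 as reported, -0.005 with quantile normalization, -0.029 with median centring). Of the log2 differences of named genes and the 7 drug-changed genes under all alternatives, 1164 kept direction and side of the threshold, 311 lost the call and 8 gained it. Differences that changed sign were Ppara (-0.01 with the covariate), Car3 (0.32 with the covariate, 0.03 in the lower level, 0.3 without lean control 2), Scnn1g (-0.08 without obese rosiglitazone 3), Aqp2 (-0.0 with median centring, -0.02 without obese rosiglitazone 1, -0.01 without lean control 2), Dbp (-0.15 without lean control 3), Fabp5 (-0.05 without obese rosiglitazone 1) and Tro (0.01 in the lower level, 0.03 without obese rosiglitazone 2). When 1 array was left out, the differences of these genes ranged from -0.35 to 0.3 (Car3), -0.08 to 0.38 (Scnn1g), -0.02 to 0.08 (Aqp2), -0.15 to 0.4 (Dbp), -0.05 to 0.15 (Fabp5) and -0.24 to 0.03 (Tro). None of these was called, and the causes were not tested. Ppara was at background in both groups, with means of 15.2 and 30.7. The lean control means of Car3, Scnn1g, Aqp2, Dbp, Fabp5 and Tro were 833, 904, 12052, 1157, 4174 and 693, above background. Separately, with 3 rats a group and signals near background, small differences of dim genes could not be measured.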
